A study of Mus musculus with 18 samples.

Results

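The 7 genes read as the antimicrobial output of Paneth cells were followed across the 18 libraries: *Lyz1*, *Mmp7*, *Ang4*, *Itln1*, *Defa24*, *Defa30* and *Defa-ps6*, which are 7 of the 36757 genes in the count table. They were chosen by symbol, as genes known from Paneth cells, at a time when the colitis-associated cancer (CAC) genotype comparison was already known, where *Defa30* and *Defa-ps6* were among the larger increases. That comparison is therefore given as a description without a test, and the tests below rest on the colitis and organoid libraries, whose comparisons the rule did not use, although earlier results of those libraries were known as well.

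The libraries came from C57BL/6 mice aged 6 to 8 weeks at the start, labelled wild type (the RNF138 fl/fl controls of the study's methods) or RNF138-/-, with 3 libraries in each genotype of each of 3 models. Colitis mice drank 2% dextran sodium sulfate (DSS), an agent that injures the colonic epithelium, for 7 days followed by 14 days of water, in repeated rounds, and were taken 4 weeks after the last DSS. CAC mice received in addition 10 mg/kg of the mutagen azoxymethane before DSS, and the organoids were cultures grown in matrigel from CAC tumours of each genotype. The driver that removed RNF138, the deleted part of the gene and the number of mice or tumours behind an organoid line are not given in the sources used here, and nothing in them says that the 3 organoid libraries of a genotype came from separate mice, so p-values measure the spread between libraries, which may be technical in part.

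The libraries held 11514716 to 24390082 counts. Whole-gene *Rnf138* counts did not check the genotype labels: 16.0 to 25.5 CPM (counts scaled to library size with TMM factors) in colitis wild type against 18.1 to 19.5 in colitis labelled RNF138-/-, 20.997 to 28.0 against 39.6 to 45.3 in CAC, and 37.4 to 55.2 against 42.6 to 49.9 in organoids. Directions below are therefore those of the labels. The Y-linked list (4 genes) was at 0 in all wild-type organoid libraries and summed to between 241 and 280 CPM in the organoid libraries labelled RNF138-/-, so that genotype and sex cannot be told apart in organoids.

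Paneth cells sit at the base of small intestinal crypts, where they release granules of antimicrobial proteins and provide signals to the neighbouring stem cells. The healthy mouse colon has few or none of them, although cells with Paneth features appear in inflamed and tumour-bearing colon. *Lyz1* encodes lysozyme, which cuts the bacterial cell wall, and *Mmp7* encodes matrilysin, the protease that trims the precursors of mouse alpha-defensins into active peptides. The alpha-defensins (*Defa* genes), also called cryptdins in mice, are small peptides that disrupt bacterial membranes. *Ang4* encodes a ribonuclease of the angiogenin family with antimicrobial activity, and *Itln1* encodes intelectin, a lectin that binds microbial sugars; both are also known from goblet cells.

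In mm10 coordinates, the 3 defensin members lie on the plus strand of a cluster of 28 *Defa* genes (21 protein-coding genes and 7 pseudogenes) that spans chr8:21025545-21735471. *Defa24* is at chr8:21734494-21735471 and *Defa30* at chr8:21134642-21135598, both protein-coding, and *Defa-ps6*, at chr8:21225406-21226247, is annotated as an unprocessed pseudogene. *Lyz1* is at chr10:117287797-117292868 (minus strand), *Mmp7* at chr9:7692090-7699585 (plus strand), *Ang4* at chr14:51763878-51773590 (minus strand) and *Itln1* at chr1:171518122-171535294 (minus strand), all protein-coding. The counts are of reads over the exons of each gene.

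How alike the defensin copies are decides how well their reads can be told apart, so the spliced coding sequences of *Defa24* and *Defa30* are shown 5′ to 3′, with the stretch of *Defa-ps6* that aligns to them (reference sequence of the mm10 annotation). Capitals mark bases that differ from *Defa24*.
Defa24: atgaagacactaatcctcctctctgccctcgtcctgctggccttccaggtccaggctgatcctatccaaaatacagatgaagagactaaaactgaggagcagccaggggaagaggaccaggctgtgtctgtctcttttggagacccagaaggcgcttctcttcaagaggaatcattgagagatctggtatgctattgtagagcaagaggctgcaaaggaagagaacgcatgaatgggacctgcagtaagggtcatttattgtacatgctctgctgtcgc
Defa30: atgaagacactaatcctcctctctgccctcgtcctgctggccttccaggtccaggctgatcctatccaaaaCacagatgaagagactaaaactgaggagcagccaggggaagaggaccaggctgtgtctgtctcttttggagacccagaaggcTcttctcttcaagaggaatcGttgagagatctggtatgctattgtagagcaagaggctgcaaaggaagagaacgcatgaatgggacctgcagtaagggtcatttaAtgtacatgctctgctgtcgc
Defa-ps6: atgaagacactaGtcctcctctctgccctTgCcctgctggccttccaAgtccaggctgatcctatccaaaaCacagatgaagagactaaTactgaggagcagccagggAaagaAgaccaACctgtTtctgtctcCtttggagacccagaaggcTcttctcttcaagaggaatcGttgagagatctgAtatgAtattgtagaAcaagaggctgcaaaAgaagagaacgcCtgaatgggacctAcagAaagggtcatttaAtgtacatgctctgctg
*Defa30* differed from *Defa24* at 4 of 279 bases (98.6% identity), and *Defa-ps6* at 22 of 275 (92% identity). By comparison, *Defa22*, the most abundant *Defa* gene outside the set, shared 83.6% of its aligned coding bases with *Defa24*.

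Of all 50-base windows of the annotated transcripts, 28.1% of *Defa24*, 52.4% of *Defa30* and 64.8% of *Defa-ps6* occurred letter for letter in another gene, *Defa24* and *Defa30* most often in each other and *Defa-ps6* most often in *Defa-ps1*. With 100-base windows the shares were 0% for *Defa24*, 0.334% for *Defa30* and 16.4% for *Defa-ps6*. *Lyz1* shared 16.1% of its 50-base windows with *Lyz2*, the lysozyme gene of macrophages, whose coding sequence is 95% identical over 444 bases. The shares were 7.36% for *Mmp7*, 4.70% for *Ang4* and 0.972% for *Itln1*. How the counting treated reads that map to several genes is not given in the sources used here, so single defensin copies are uncertain, *Defa-ps6* above all, and their sum is given beside them.

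Wnt signals, through TCF/LEF factors, are known to support defensin and *Mmp7* expression in Paneth cells. The bases upstream of *Defa30* are shown because they hold matches to the letters CTTTGNT, taken here as a stand-in for the TCF/LEF core and searched on both strands. The window is chr8:21134400-21134641, plus strand, from RefSeq (GRCm38.p6), with the matches, which lie on the minus strand, in capitals.
Defa30 upstream: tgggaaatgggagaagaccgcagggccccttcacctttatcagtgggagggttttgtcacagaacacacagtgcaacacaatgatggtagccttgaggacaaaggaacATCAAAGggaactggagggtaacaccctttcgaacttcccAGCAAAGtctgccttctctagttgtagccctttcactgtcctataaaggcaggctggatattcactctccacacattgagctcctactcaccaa
There were 2 matches here, 1 upstream of *Itln1* and none in the windows directly upstream of *Lyz1*, *Ang4* and *Mmp7*. A second RefSeq window of *Mmp7*, chr9:7692091-7692340, which lies inside the gene, held 1. RefSeq windows were found for 5 of the 7 members. Of 16 *Defa* promoters, 81.25% held the letters, against 16.0% of all 32851 promoters. This is a description of letters in a window and says nothing of binding.

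*Lyz1*, *Mmp7* and the 3 defensins were near or at 0 in colitis and highest on average in CAC labelled RNF138-/-. All 5 had counts in every CAC and organoid library, although *Defa-ps6* had no more than 1 and 2 counts in a pair of organoid libraries, under the 3-count limit used below. *Ang4* was highest on average in colitis labelled RNF138-/-, and *Itln1* was well detected in a pair of colitis libraries. The plot of member levels by library shows the 18 values of each gene.

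**Figure D1:**
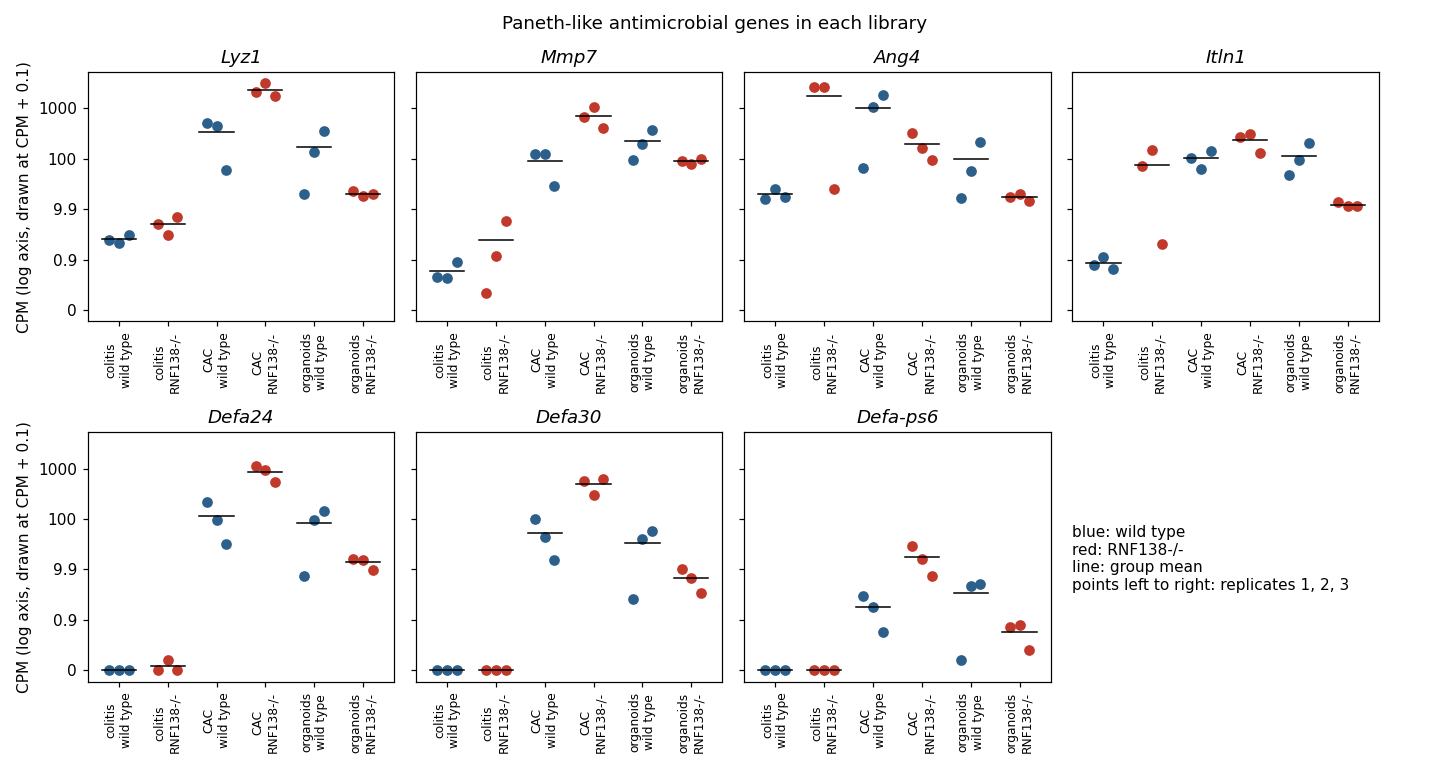
CPM of each gene in each library on a log axis drawn at CPM + 0.1, with points for replicates 1, 2 and 3 of a group and a line at the group mean. *Defa30* and *Defa-ps6* lie at 0 in all 6 colitis libraries, whereas *Ang4* reaches 2609 and 2703 CPM in a pair of colitis libraries labelled RNF138-/-.

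In colitis wild type, replicates 1, 2 and 3 held *Lyz1* at 2.34, 2.04 and 2.95 CPM, and the libraries labelled RNF138-/- at 4.97, 2.96 and 6.91 CPM. *Mmp7* stood at 0.342, 0.341 and 0.816 CPM against 0.120, 1.09 and 5.85 CPM. Both genes were thus barely detected in colitis tissue, and *Mmp7* overlapped between the genotypes. *Lyz1* did not overlap on this scale, but only narrowly. Replicate 2 labelled RNF138-/- had 2.962 CPM (49 counts) and wild-type replicate 3 had 2.949 CPM (47 counts). Scaled by total counts instead of TMM these were 2.88 and 2.95 CPM, so that the genotypes overlapped.

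The defensins were at or next to 0. *Defa24* had 1 count in a single library, replicate 2 labelled RNF138-/-, and 0 in the other 5, and *Defa30* and *Defa-ps6* had 0 in all 6 colitis libraries. A count of 0 allows up to 3 counts, 0.151 to 0.188 CPM across these libraries, which covers counting error only. All 28 *Defa* genes together had 0 counts in colitis wild type and 8 in colitis labelled RNF138-/-.

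*Ang4* was at 15.7, 25.2 and 17.8 CPM in colitis wild type and at 2609, 2703 and 25.5 CPM in the libraries labelled RNF138-/-. *Itln1* was at 0.684, 1.02 and 0.565 CPM against 72.2, 151 and 1.92 CPM. For each of them replicates 1 and 2 labelled RNF138-/- were far above the wild type and replicate 3 just above it, so the groups did not overlap, but the spread within the group (SD 1519 CPM for *Ang4* around a mean of 1779, n = 3) was nearly as large as its mean.

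The genotype test (edgeR quasi-likelihood, called at an adjusted p below 0.05 with a fold of at least 2) covered 4 of the 7 members in colitis, since the defensins fell under the count filter. None of the 4 was called, where 0.0902% of all 16623 genes tested were. The log2 fold change, labelled RNF138-/- over wild type, was 6.51 for *Ang4* (SE 1.41, adjusted p = 0.184), 6.62 for *Itln1* (SE 1.37, adjusted p = 0.172), 1.06 for *Lyz1* (SE 0.38, adjusted p = 0.380) and 2.30 for *Mmp7* (SE 1.10, adjusted p = 0.529), which fell to 0.28 without replicate 3 labelled RNF138-/-; *Itln1* was at 5.59 without replicate 2 labelled RNF138-/-. At an unadjusted p below 0.05 there were 3 of 4, beside 10.4% of all genes, and DESeq2 called 2, *Ang4* and *Itln1*, beside 2.06% of all genes. Every library labelled RNF138-/- exceeded every wild-type library for 3 of the 4, *Lyz1*, *Ang4* and *Itln1*, as for 8.04% of all genes tested. For *Lyz1* and *Ang4* the margin was narrow, and for *Lyz1* it did not hold with total-count scaling.

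No label says that libraries were paired, but in colitis the replicate numbers were taken to pair them, from the correlation of same-numbered libraries. With the number as a block 1 of the 4 was called, *Itln1* (log2 fold change 6.19, adjusted p = 0.0413), beside 0.535% of all genes in that fit. Its adjusted p ranged from 2.12e-05 to 0.659 over the alternatives. The block lowered the log2 fold change of *Ang4* to 5.55 (adjusted p = 0.184) and that of *Mmp7* to 1.62, and with the summed Y-linked level as a covariate they were 4.71 (adjusted p = 0.0785) and 1.64, with *Itln1* at 5.73 (adjusted p = 0.0456). All colitis libraries had Y-linked counts (115 to 205 CPM), so this covariate does not stand for sex. Its highest value was in replicate 3 labelled RNF138-/-, the library of that group lowest in *Ang4* and *Itln1*. Without replicate 3 labelled RNF138-/-, *Ang4* (7.09, adjusted p = 1.54e-05) and *Itln1* (7.19, adjusted p = 0.000166) were both called, beside 0.87% of all genes.

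The colitis libraries in which *Ang4* was high were those in which *Retnlb*, a goblet cell product known to follow type 2 cytokines, was high as well. *Retnlb* stood at 3.71, 4.15 and 5.14 CPM in wild type and at 1810, 1755 and 94.3 CPM in the libraries labelled RNF138-/- (log2 fold change 8.14, SE 1.11, adjusted p = 0.0525). *Mptx1*, a mucosal pentraxin, stood at 206, 235 and 301 CPM against 7562, 1702 and 23.9 CPM. In the libraries where *Ang4* was highest, replicates 1 and 2 labelled RNF138-/-, all *Defa* genes together had 2 and 4 counts. Of these, *Retnlb* and *Mptx1* were singled out after their values were seen.

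Genes that mark positions along the gut also differed between the colitis genotypes, although none of those named here was called. *Hoxb13*, a gene of the distal colon, was at 170, 184 and 116 CPM in colitis wild type and at 74.1, 4.90 and 7.67 CPM in the libraries labelled RNF138-/- (log2 fold change −2.43, SE 0.91, adjusted p = 0.409). *Gata4*, a transcription factor of the proximal small intestine, was at 0.0627 to 0.627 CPM against 2.04, 4.72 and 1.21 CPM (2.84, adjusted p = 0.219), and the ileal bile acid transporter *Slc10a2* at 1.02 to 3.89 CPM against 0.539, 65.4 and 136 CPM (4.99, adjusted p = 0.274). *Hoxb13* was thus lowest and *Slc10a2* highest in replicates 2 and 3 labelled RNF138-/-, whereas *Ang4* and *Itln1* were highest in replicates 1 and 2. Of the 14 small intestinal enterocyte genes tested 0 were called and 11 had positive log2 fold changes (median 0.87), with summed levels of 662 to 966 CPM in wild type and 1099 to 1370 CPM in RNF138-/-. Of the 12 colonocyte genes tested, *Hoxb13* among them, 0 were called and 9 had negative log2 fold changes (median −0.30). Their summed levels were 6311 to 7819 CPM in wild type and 7090 to 8911 CPM in RNF138-/-. *Hoxb13*, *Gata4* and *Slc10a2* were singled out after their values were seen, and their part in the members' differences was not tested.

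In CAC wild type, *Lyz1* was at 520, 440 and 59.6 CPM and in CAC labelled RNF138-/- at 2075, 3160 and 1759 CPM. *Mmp7* was at 123, 123 and 29.1 CPM against 685, 1044 and 405 CPM. *Defa24* was at 219, 93.8 and 31.4 CPM against 1119, 924 and 549 CPM. In all of these, the 3 libraries labelled RNF138-/- stood above the 3 wild-type libraries, of which replicate 3 was the lowest.

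*Defa30* had 98.6, 45.0 and 15.1 CPM in CAC wild type and 574, 298 and 637 CPM in CAC labelled RNF138-/-, and *Defa-ps6* had 2.87, 1.68 and 0.462 CPM against 29.6, 16.1 and 7.22 CPM. *Itln1* overlapped more, at 106, 63.1 and 143 CPM against 273, 310 and 131 CPM. *Ang4* ran the other way on average, at 65.7, 1082 and 1857 CPM in wild type and 328, 164 and 95.8 CPM in the libraries labelled RNF138-/-, and the genotypes overlapped.

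As a description, the CAC log2 fold changes were 2.76 for *Lyz1* (SE 0.74), 2.94 for *Mmp7* (SE 0.61), 2.89 for *Defa24* (SE 0.68), 3.23 for *Defa30* (SE 0.68), 3.34 for *Defa-ps6* (SE 0.72), 1.14 for *Itln1* (SE 0.42) and −2.43 for *Ang4* (SE 1.08). The median of the 7 was 2.89, beside 0.01 over all genes tested. In 5 of the 7 every library labelled RNF138-/- exceeded every wild-type library, which held for 22.8% of all genes tested; the members were chosen with this contrast known, and nothing is read from that count.

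The pair of CAC libraries highest in *Ang4* was also the highest in *Retnlb* and *Mptx1*. *Retnlb* was at 11.998, 577 and 2153 CPM in CAC wild type and at 16.4, 1.54 and 7.26 CPM in the libraries labelled RNF138-/-, and *Mptx1* at 230, 5058 and 647 CPM against 66.9, 3.20 and 11.5 CPM. The wild-type replicates 2 and 3, high in *Ang4*, were thus high in both. Beyond that the order did not match. Wild-type replicate 1 was the lowest of the CAC libraries in *Ang4* but above all those labelled RNF138-/- in *Mptx1*. *Mptx1* peaked in wild-type replicate 2 and *Ang4* in replicate 3. Across the CAC and colitis libraries *Ang4* and the lysozyme and defensin genes peaked in different libraries, as the plot of *Lyz1* against the summed defensins and of *Ang4* against *Retnlb* shows.

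**Figure D2:**
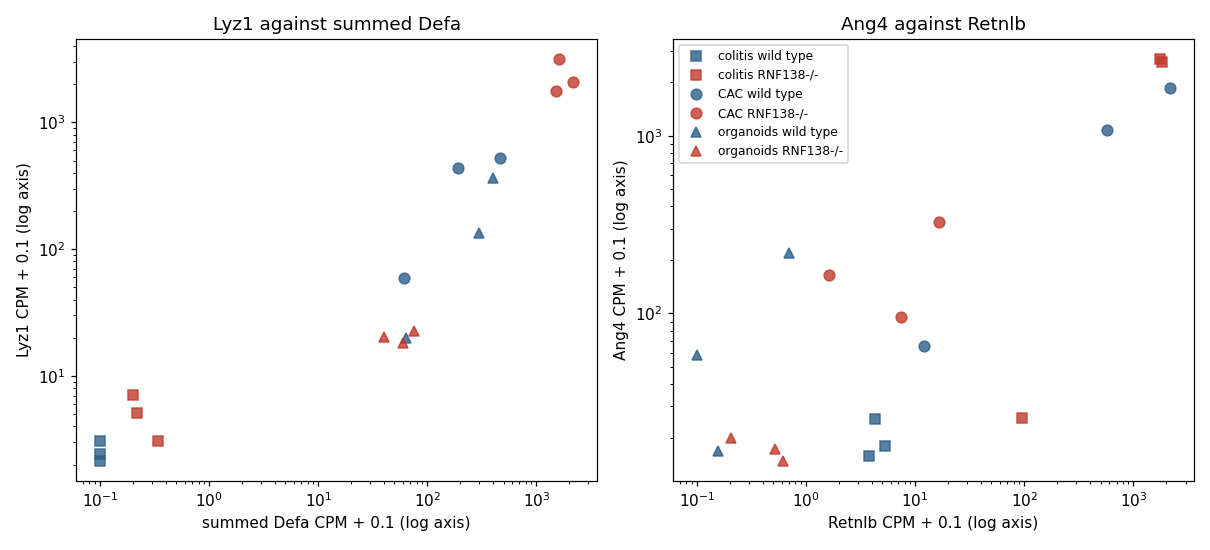
Left, *Lyz1* against the sum of the 28 *Defa* genes; right, *Ang4* against *Retnlb*; CPM + 0.1 on log axes, a point for each library, blue for wild type and red for RNF138-/- labels. The 4 libraries with the highest *Ang4*, 1082 to 2703 CPM (colitis labelled RNF138-/- replicates 1 and 2, CAC wild type replicates 2 and 3) have *Retnlb* between 577 and 2153 CPM.

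The CAC libraries differed in more than these genes. In replicate 2 of CAC wild type the pancreatic acinar genes *Cpa1* and *Ctrb1* stood at 247 and 522 CPM, and in replicate 3 at 11.7 and 31.5 CPM, against at most 0.135 CPM in the other 4 CAC libraries. Replicate 3 of CAC wild type, lowest in *Lyz1*, *Mmp7* and all 3 defensins, had *Hoxb13*, a gene of the distal colon, at 4.53 CPM against 127 to 260 in the other 5, and *Krt20*, a marker of surface epithelium, at 2180 CPM against 49.6 to 754. These genes were singled out after their values were seen, and their part in the members' values was not tested. Left out in turn, replicate 2 and replicate 3 of CAC wild type, like every other library, left the sign of all 7 CAC log2 fold changes as it was; that of *Ang4* moved from −2.43 to −1.56 without wild-type replicate 3 and to −3.02 without replicate 1 labelled RNF138-/-. Without wild-type replicate 1, the highest wild-type library for the defensins, the values rose to 3.74 for *Defa24* and 4.02 for *Defa30*, and without replicate 1 labelled RNF138-/- that of *Defa-ps6* was 2.74.

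Marker lists of other cell types also differed between the CAC genotypes. All 12 goblet cell genes were lower in the libraries labelled RNF138-/- (median log2 fold change −1.94, summed level 17349 to 46807 CPM in wild type and 3259 to 4965 CPM in RNF138-/-). The 10 B and plasma cell genes had a median of −3.45, with 9 lower, and sums of 8968 to 14534 against 994 to 1731 CPM. The 12 general intestinal epithelium genes had a median of −1.10, all lower. Of 13 colonocyte genes 11 were lower (median −2.15), and of 13 tested small intestinal enterocyte genes 11 were lower (median −2.16), with summed levels of 343 to 2047 CPM in wild type and 129.7 to 193 CPM in RNF138-/-. Neutrophil genes (8 tested) had a median of 1.79, macrophage genes (10) 0.12, fibroblast and smooth muscle genes (10) −0.95 and deep crypt secretory cell genes (6), the colonic counterpart of Paneth cells, −0.95. The Y-linked list (4) had −0.07 and the acinar list (3 tested) −1.85. Of the fibroblast and smooth muscle genes 8 were lower and 2 higher, from −6.54 for *Des* and −5.03 for *Myh11* to 0.51 for *Col1a1*. Their summed levels were 3271 to 6656 CPM in wild type and 1019 to 1898 CPM in RNF138-/-. In these bulk tissues fewer cells of a type and less RNA per cell cannot be told apart, and the part of these lists in the members' differences was not tested.

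Against colitis, CAC wild type had log2 fold changes of 7.12 for *Lyz1*, 7.52 for *Mmp7*, 5.71 for *Ang4* and 7.11 for *Itln1*. Set against a floor of 3 counts per colitis library, its mean level was at least 650-fold higher for *Defa24*, at least 299.6-fold higher for *Defa30* and at least 9.47-fold higher for *Defa-ps6*. Without CAC wild-type replicate 1, an alternative added after the data were seen, these bounds fell to 355-fold, 170.1-fold and 6.07-fold. In the libraries labelled RNF138-/- the values were 8.87 for *Lyz1* and 8.19 for *Mmp7* but −3.17 for *Ang4* and 1.68 for *Itln1*, with at least 2943-fold higher *Defa30* and at least 103-fold higher *Defa-ps6* (68.3-fold without replicate 1 labelled RNF138-/-). These are descriptions, since they share the CAC libraries.

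In organoids the genotype order of *Lyz1*, *Mmp7* and the defensins ran opposite to that in CAC, a contrast between models that was not tested. Wild-type organoids held *Lyz1* at 20.0, 134 and 361 CPM and those labelled RNF138-/- at 22.6, 18.05 and 20.0 CPM. *Mmp7* was at 94.6, 198 and 374 CPM against 89.0, 78.6 and 100.4 CPM. Wild-type replicates 2 and 3 stood above all 3 libraries labelled RNF138-/-, and wild-type replicate 1 lay among them.

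Wild-type replicates 2 and 3 were also above all 3 libraries labelled RNF138-/- for the other members, while wild-type replicate 1 lay among them for *Ang4* and below all 3 for the defensins. *Ang4* was at 16.8, 58.1 and 218 CPM in wild type and at 17.1, 19.7 and 14.7 CPM in the libraries labelled RNF138-/-, *Defa24* at 7.38, 97.7 and 146 CPM against 16.4, 15.1 and 9.59 CPM, and *Defa30* at 2.52, 39.3 and 58.4 CPM against 9.89, 6.81 and 3.35 CPM. *Defa-ps6* had 1, 59 and 76 counts against 9, 13 and 2 counts. Only *Itln1* separated the genotypes, at 47.9, 94.3 and 202 CPM against 13.8, 11.2 and 11.5 CPM, so 1 of the 6 tested members did, as did 25.2% of all genes tested (every library labelled RNF138-/- below every wild-type library).

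Of the 6 members tested in organoids, 5 were called lower in the libraries labelled RNF138-/-, where 7.04% of the 15294 genes tested were. The log2 fold changes were −3.28 for *Itln1* (SE 0.48, adjusted p = 0.00297), −3.14 for *Lyz1* (SE 0.83, adjusted p = 0.0213), −2.55 for *Ang4* (SE 0.77, adjusted p = 0.0337), −1.36 for *Mmp7* (SE 0.41, adjusted p = 0.0351) and −2.66 for *Defa24* (SE 0.83, adjusted p = 0.0389). *Defa30*, at −2.36 (SE 0.89, adjusted p = 0.0687), missed the threshold, and *Defa-ps6* was under the count filter. The median of the 6 was −2.602, beside −0.04 over all genes tested.

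The calls depended on single libraries. All 6 tested were called without wild-type replicate 1, 2 without wild-type replicate 2, and 1, *Itln1*, without wild-type replicate 3 or without replicate 1, 2 or 3 labelled RNF138-/-. Without one of the libraries labelled RNF138-/- the log2 fold changes kept their size (−3.21, −3.05 and −3.12 for *Lyz1*), whereas without wild-type replicate 3 they shrank, from −3.14 to −1.99 for *Lyz1*, from −2.55 to −1.17 for *Ang4*, from −1.36 to −0.77 for *Mmp7*, from −2.66 to −1.996 for *Defa24*, from −2.36 to −1.69 for *Defa30* and from −3.28 to −2.60 for *Itln1*. Of all genes, 8.8%, 4.67% and 6.65% were called lower without wild-type replicates 1, 2 and 3, and 5.1%, 4.14% and 4.98% without replicates 1, 2 and 3 labelled RNF138-/-. In the fit of all 18 libraries *Mmp7* (−1.32, adjusted p = 0.215) and *Ang4* (−2.51, adjusted p = 0.167) were not called, beside 4.01% of all genes called lower. With the replicate number as a block, although the numbers did not pair the organoid libraries, *Lyz1* (−2.46), *Ang4* (−1.85) and *Defa24* (−2.08) were not called, beside 5.71% of all genes. Beside the members, collagen *Col1a1* stood at 9366, 3197 and 3372 CPM in wild-type organoids, highest in replicate 1 where the members were lowest, and at 13150, 16001 and 15818 CPM in those labelled RNF138-/-, while tissue libraries held 63.5 to 271 CPM and the epithelial marker *Epcam* was at 1397 to 1609 CPM in wild-type organoids and 824 to 1274 CPM in those labelled RNF138-/-. All 10 fibroblast and smooth muscle genes had positive log2 fold changes, 6 of them called higher, beside 7.94% of all genes (*Dcn*, *Col3a1* and *Pdgfra* with the lowest adjusted p), with summed levels of 9428 to 24163 CPM against 41376 to 50680 CPM. Macrophage genes were at 50.9 to 71.8 CPM in sum against 141 to 199 CPM, with 5 of 8 called higher, *Lyz2* among them at 4.00 to 7.49 against 72.2 to 111 CPM. Their part in the members' differences was not tested.

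**Figure D3:**
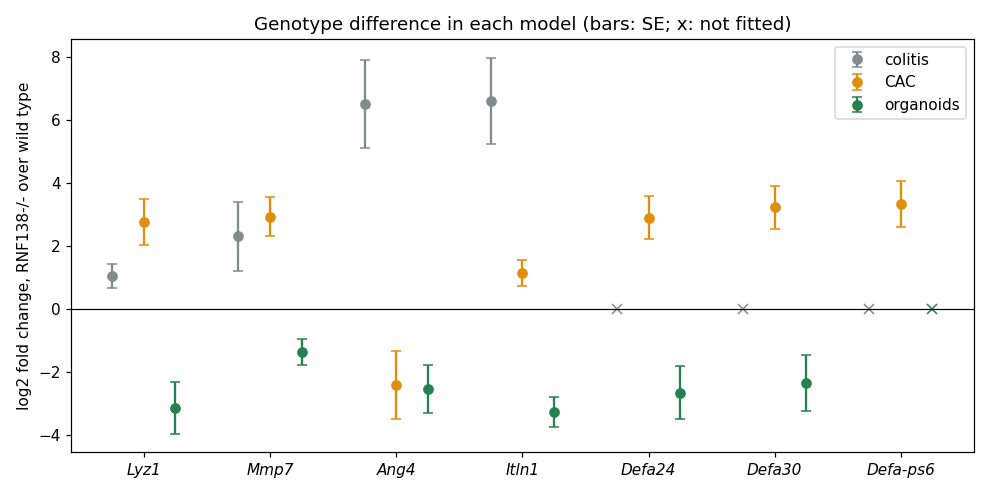
Log2 fold change of each gene, labelled RNF138-/- over wild type, in colitis, CAC and organoids, with bars of 1 SE and crosses where a gene was not fitted. *Lyz1*, *Mmp7*, *Defa24* and *Defa30* lie above 0 in CAC (2.76 to 3.23) and below 0 in organoids (−3.14 to −1.36); CAC values are a description.

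Whether the genotype difference itself was unequal between colitis and organoids was tested in a single fit of those 12 libraries. For 3 members it was: the organoid minus colitis difference was −9.86 on the log2 scale for *Itln1* (SE 1.53, adjusted p = 0.00447), −9.03 for *Ang4* (SE 1.72, adjusted p = 0.0101) and −4.16 for *Lyz1* (SE 1.02, adjusted p = 0.0261), while *Mmp7*, at −3.65 (SE 1.18, adjusted p = 0.0711), was not called. Negative calls made up 3.54% of all 17871 genes tested. The sizes leaned on single libraries. Without colitis replicate 3 labelled RNF138-/- the *Mmp7* difference was −1.65. Without wild-type organoid replicate 3 it was −3.07 for *Lyz1*, −7.70 for *Ang4* and −9.22 for *Itln1*, and without colitis replicate 2 labelled RNF138-/- it was −8.89 for *Itln1*. With the replicate block, *Lyz1* was no longer called (adjusted p = 0.0618; 7.17e-09 to 0.0689 over the alternatives) and *Mmp7* was (adjusted p = 0.0385; 7.97e-06 to 0.318), with 3.4% of all genes called negative. The block moved the difference of *Lyz1* to −3.42 and that of *Ang4* to −7.35. The defensins, at or near 0 in colitis, gave no difference of this kind. Wild-type organoids had no Y-linked counts, unlike the other groups of this fit, so the organoid part of each difference joins genotype and sex.

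In wild type, cultured organoids exceeded colitis tissue in 3 of the 4 members with counts in both, where 19.9% of all genes did: *Mmp7* (log2 fold change 8.81, SE 0.99, adjusted p = 8.07e-06), *Lyz1* (6.15, SE 0.83, adjusted p = 3.87e-05) and *Itln1* (7.24, SE 1.22, adjusted p = 0.000226). *Ang4* (2.33, SE 1.11, adjusted p = 0.0837) was not called. Without wild-type organoid replicate 3 the values were 5.03 for *Lyz1*, 6.58 for *Itln1* and 0.99 for *Ang4*, and with the replicate block that of *Mmp7* was 11.4. The defensins had no counts in colitis wild type, and *Defa24* and *Defa30* passed the count filter only through the organoids, so they are given as bounds with no test: against the 3-count floor per library the organoid mean was at least 473-fold higher for *Defa24*, at least 189-fold higher for *Defa30* and at least 18.4-fold higher for *Defa-ps6*. Without wild-type organoid replicate 3 the bounds of *Defa24* and *Defa30* fell to 298-fold and 118-fold. Fibroblast and smooth muscle sums were 9428 to 24163 CPM in wild-type organoids against 5700 to 6558 CPM in colitis wild type. Cell number and RNA per cell cannot be told apart in such sums. The Y-linked sum was 0 in all wild-type organoid libraries and 130 to 179 CPM in colitis wild type. Model, sex and these marker levels therefore differed together in this comparison and cannot be told apart.

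Per length (TPM, counts scaled by exon length and library), the members had different rankings in each group. In CAC labelled RNF138-/- the mean TPM was 7994 for *Defa24* (SD 2554, n = 3), 7232 for *Lyz1* (SD 2584), 4870 for *Defa30* (SD 1640), 2611 for *Mmp7* (SD 1269), 1061 for *Ang4* (SD 604), 814 for *Itln1* (SD 336) and 240 for *Defa-ps6* (SD 145), so *Defa24* and *Lyz1* did not differ beyond their spread. *Ang4* had the highest mean in CAC wild type, at 3911 TPM (SD 3273) against 821 (SD 612) for *Lyz1* and 826 (SD 703) for *Defa24*, and in colitis wild type, at 75.2 (SD 19.6) against 5.26 (SD 0.986) for *Lyz1*. In colitis labelled RNF138-/- it led again, at a mean of 6105 TPM (SD 5245), with *Itln1* at 163 (SD 168), *Lyz1* at 10.0 (SD 4.56) and *Mmp7* at 5.96 (SD 7.92). In wild-type organoids *Mmp7* (621, SD 429) and *Defa24* (600.3, SD 519) led with overlapping values, and in organoids labelled RNF138-/- *Mmp7* led alone, at 230 TPM (SD 33.8) against 89.4 (SD 22.2) for *Defa24*.

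Ordered by group means of CPM, *Lyz1* ran from CAC labelled RNF138-/- through CAC wild type, wild-type organoids and organoids labelled RNF138-/- to colitis, and the neighbours CAC wild type and both organoid groups overlapped in range. *Defa24* and *Defa30* kept this order. *Mmp7* and *Defa-ps6* placed wild-type organoids before CAC wild type, again with overlap. For *Ang4* all 5 neighbouring pairs overlapped, and for *Itln1* only colitis wild type, the lowest group, stood clear of its neighbour.

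Of the 28 *Defa* genes, 18 had at least 10 counts in some library: the 3 members and *Defa2*, *Defa3*, *Defa5*, *Defa17*, *Defa20*, *Defa21*, *Defa22*, *Defa26*, *Defa28*, *Defa29*, *Defa32*, *Defa34*, *Defa35*, *Defa-ps1* and *Defa-ps18*. Wild-type organoids were above CAC wild type on average for *Defa21* (31.9 against 9.92 CPM) and *Defa22* (41.7 against 20.9 CPM), and below it for *Defa24* and *Defa30*. *Defa-ps5* had 6 counts in all, every one of them in colitis. The sum over all 28 was 464.5, 191 and 60.4 CPM in CAC wild type and 2170, 1611 and 1515 CPM in CAC labelled RNF138-/-, 63.3, 295 and 398 CPM in wild-type organoids and 76.1, 59.2 and 39.8 CPM in those labelled RNF138-/-. The CAC groups stood apart and the organoid groups overlapped through wild-type replicate 1. In organoids *Defa22* (−2.01, adjusted p = 0.00956), *Defa21* (−1.88, adjusted p = 0.0138), *Defa34* (−1.82, adjusted p = 0.0164), *Defa5*, *Defa32* and *Defa17* were called lower, while *Defa2* and *Defa20* were not (adjusted p = 0.0729 and 0.0720). These copies share most of their sequence, so their calls are not separate pieces of evidence.

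The mix of copies differed between models. *Defa24* supplied 36.3% to 57.4% of all *Defa* counts in the CAC libraries and 11.7% to 36.6% in organoids, whereas *Defa22* supplied 5.67% to 9.86% in CAC and 13.6% to 27.7% in organoids. The share of *Defa30* in *Defa24* and *Defa30* together was 31.0%, 32.4% and 32.4% in CAC wild type and 33.9%, 24.4% and 53.7% in CAC labelled RNF138-/- (95% Wilson interval of the last, 53.1% to 54.3%). Replicate 3 labelled RNF138-/- thus held more *Defa30* than *Defa24*, outside the intervals of the other 5 CAC libraries, and no other library did so. In organoids the share lay between 25.4% and 37.7%. Such intervals cover counting error only, since reads without molecular identifiers are not independent molecules.

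**Figure D4:**
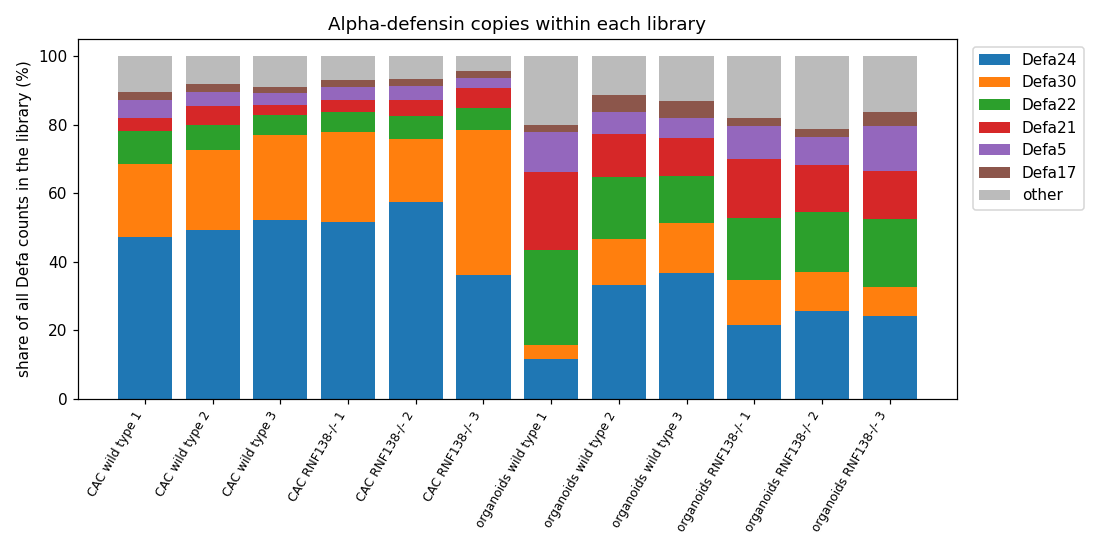
Share of all *Defa* counts taken by each of the 6 most counted copies and by the rest, in the 6 CAC and 6 organoid libraries. *Defa24* takes 36.3% to 57.4% in CAC and 11.7% to 36.6% in organoids, and CAC labelled RNF138-/- replicate 3 shows *Defa30* at 42.1%.

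The ratio of *Mmp7* to *Lyz1* counts also set the models apart. It was 0.236, 0.279 and 0.489 in CAC wild type and 0.330, 0.330 and 0.230 in CAC labelled RNF138-/-, against 4.74, 1.47 and 1.03 in wild-type organoids and 3.94, 4.36 and 5.02 in those labelled RNF138-/-. All organoid libraries therefore had more *Mmp7* than *Lyz1* counts and all CAC libraries fewer.

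The wider Paneth granule list (41 genes in the table, with all *Defa* genes) had 21 genes tested in organoids, 12 called lower and 1 higher, beside 7.04% and 7.94% of all genes, the background of all organoid counts that follow (*Mptx2*, log2 fold change 3.42, adjusted p = 0.008). Those called lower were the 5 members and the further *Defa* copies already named, and *Pla2g2a*, the only gene that the list adds to them. *Pla2g2a*, a secreted phospholipase with bactericidal activity, fell from 182 to 331 CPM in wild type to 47.2 to 61.3 CPM (−2.38, SE 0.25, adjusted p = 0.00112), without overlap. The median of the list was −1.88 in organoids, 2.16 in CAC (21 of 26 positive, *Habp2* at 2.601 and *Pla2g2a* at 1.97 among them, *Mptx1* at −6.21) and 1.19 in colitis, where 10 were tested and 0 called by edgeR. Where tested, the members and the *Defa* copies are part of these medians, which are therefore not separate evidence. The CAC median holds the members chosen with that contrast known. *Mptx1*, at 206 to 301 CPM in colitis wild type, was the example of a gene of this list that was well detected in tissue with no defensin counts.

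Regulators of Paneth cell maturation and signals to the crypt niche were present in every model, 16 tested in colitis with 0 called. In organoids 3 of 17 were called lower, *Tgfa* (−1.11, adjusted p = 0.001), *Nod2* (−1.46, adjusted p = 0.00323) and *Gfi1* (−2.18, adjusted p = 0.0197), and the list median was −0.85. In CAC it was 0.36 (9 of 17 positive). *Nod2* senses bacterial wall fragments, and *Gfi1* is a transcription factor of secretory cells.

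Other antimicrobial genes did not share a direction. In organoids 2 of 17 were called higher (*Lyz2*, 3.97, and *Slpi*, 1.78) and 4 lower (*Pglyrp1*, −2.13, with the lowest adjusted p, 0.00234), with a median of −0.07. In colitis 0 of 17 were called and the median was 0.56; in CAC it was −0.24. Among interleukin-22 and type 2 signals, 7 of 14 were tested in organoids and 1 called, the receptor *Il13ra1* (1.04, adjusted p = 0.00214), and 0 of 8 in colitis; the CAC median was −0.12.

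Beside these, the lists of other cells in organoids gave 2 of 12 goblet cell genes lower (*Zg16* and *Clca1*), 0 of 6 deep crypt secretory genes (median −0.84), 2 of 12 epithelial genes lower (*Krt18* and *Cdx2*), 2 of 11 colonocyte genes lower (*Scnn1b* and *Scnn1g*), 1 small intestinal enterocyte gene lower and 1 higher of 9 (*Npc1l1* and *Enpep*), 1 of 3 neutrophil genes, 1 of 2 B and plasma cell genes and 1 of 3 acinar genes lower, and 4 of 4 Y-linked genes higher. In colitis none of these lists had a called gene in edgeR, with goblet cell sums of 29173 to 30442 CPM in wild type and 14607 to 41645 CPM in RNF138-/-.

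The genes whose levels followed the members most closely were found by Pearson's r of log2(CPM + 1) over the 18 libraries, other genes of the same family left out. For *Lyz1* they were *Defa30* (r = 0.982), *Defa24* (0.981) and *Gm9824* (0.973). For the summed *Defa* genes they were *Mmp7* (0.972), *Pisd* (0.969) and *Erich3* (0.963), and for *Mmp7* *Arnt2* (0.985), *Prox1* (0.982) and *Tex15* (0.968). *Ang4* was most like *Il17rb* (0.883), a receptor subunit for interleukin-25, *Pla2g4c* (0.846) and *Gm20075* (0.830), and *Itln1* most like *Syt12* (0.863), *Gm15427* (0.856) and *Pnliprp2* (0.843). The points share their model, treatment and library, and these values are descriptions. Over the 12 tissue libraries the closest gene was another for each of the 5: *Gm9824* for *Lyz1*, *Hp* for *Mmp7*, *Lyrm7* for *Ang4*, *Pnliprp2* for *Itln1* and *Rps2-ps5* for the *Defa* sum.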

How the data were processed

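RNA was sequenced from 18 libraries, 3 per genotype label in each of colitis, CAC and organoids. The authors aligned reads to mm10 and deposited whole-number counts per gene, unnormalized; the submitters' processing notes name STAR 2.6.1d, HTSeq 0.11.2 and DESeq2. Strand and multi-mapping settings are not given in the sources used here. A further deposited table of the authors' own fold changes and p-values was not used.

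From the counts, CPM were computed with TMM factors over all 18 libraries and TPM with annotated exon lengths. Genotype tests used edgeR 4.0.16 (filterByExpr, quasi-likelihood, R 4.3.3) on all genes, Benjamini-Hochberg adjusted, called at an adjusted p below 0.05 and a fold of at least 2. The alternatives were DESeq2 1.42.0, RLE normalization, no count filter, a replicate block, all libraries in 1 fit, a Y-linked covariate in colitis and leaving out each library. Scripts were tested on simulated data. The named genes were the members, *Defa* genes with at least 10 counts in a library, up to 3 examples from each marker list, and the 3 genes of most like pattern among those with a mean of at least 1 CPM. Counts of members called cover those that passed the filter in the fit of all libraries of a comparison and had more than 3 counts in some library of each group. The members and lists were chosen with earlier results of these data known.

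Replicate numbers are shared between genotypes in the labels. In colitis the deviations of same-numbered libraries from their group means correlated at r = 0.323, 0.173 and 0.621 across 12091 genes, so the numbers were taken to pair the libraries there; the values were 0.0102, 0.265 and 0.0976 in CAC and −0.290, −0.139 and 0.133 in organoids, where they were not. Correlations between differently numbered libraries were not computed, so the pairing in colitis is an assumption. No pair of replicates agreed within sampling noise (chi-square per degree of freedom of at least 7.44). Libraries of 11514716 to 24390082 counts put 3 counts, the limit a count of 0 allows, at 0.121 to 0.277 CPM. Sequences and windows came from the mm10 annotation (GENCODE M21) and RefSeq promoter tables.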

Additional observations from a re-analysis of the deposited data

Results flagged for a closer look

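The genotype difference of 3 genes was unequal between colitis and organoids in a test of the difference itself (edgeR, 12 libraries). The organoid genotypes also differed in Y-linked level, at 0 CPM in wild type and 241 to 280 CPM in those labelled RNF138-/-. Both colitis genotypes had Y-linked counts, so genotype and sex cannot be told apart in the organoid part. On the log2 scale the organoid difference minus the colitis difference was −9.86 for *Itln1* (adjusted p = 0.00447), −9.03 for *Ang4* (adjusted p = 0.0101) and −4.16 for *Lyz1* (adjusted p = 0.0261). For *Itln1* and *Ang4* it held in each of the 17 alternatives (at most 0.019 and 0.0491), and for *Lyz1* in 9 of 17. No alternative separates genotype from sex in organoids. Negative calls made up 3.54% of all genes tested. In colitis alone none of the 3 was called (adjusted p = 0.172, 0.184 and 0.380). All 3 were higher in colitis labelled RNF138-/- in 3 of 3 libraries, as were 8.04% of all genes. The margin was narrow for *Ang4* in replicate 3 (25.5 CPM against 25.2 CPM in the highest wild-type library). It was narrower for *Lyz1* in replicate 2 (2.962 against 2.949 CPM), and reversed there with total-count scaling. In organoids 3 of 3 libraries labelled RNF138-/- lay below every wild-type library for *Itln1*, as for 25.2% of all genes, and 1 of 3 for each of *Ang4* and *Lyz1*.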

How the results depend on the processing

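Of the colitis members, 0 were called in edgeR, 2 without the count filter, 2 with DESeq2, and 1 each with the replicate block, in the fit of all 18 libraries and with the Y-linked covariate; leaving out a library gave 0 to 2. Of the organoid members, 5 were called, 2 with the replicate block and 3 in the fit of all 18 libraries; leaving out a library gave 1 to 6. Counts of all genes called moved too: 15 of 16623 tested in colitis against 354 of 32162 without the filter, 343 with DESeq2, 89 with the block and 176 with the covariate. They were 12 of 19390 in the fit of all 18 libraries and 0 to 147 without single libraries (16902 to 17208 tested). The cause was not tested. In organoids the numbers do not pair the libraries, and the block is given for completeness. The members unequal between organoids and colitis (3) ranged from 2 to 4 and those higher in wild-type organoids (3 of 4) from 3 to 4 without single libraries. Over the same fits, of 18303 to 18562 genes tested, 254 to 909 were called negative in the first comparison, against 633 of 17871 with all libraries. In the second, 3524 to 3797 were called higher, against 3561. In CAC the sign of all 7 members was kept in all 11 alternatives, while the median log2 fold change of 2.89 ranged from 2.47 to 3.19 and that of *Ang4* (−2.43) from −3.02 to −1.56. *Itln1* in organoids was called in all 11. Scaled by total counts instead of TMM, the organoid means labelled RNF138-/- fell to 16.3 CPM for *Lyz1*, 72.1 for *Mmp7*, 13.8 for *Ang4* and 9.83 for *Itln1*, while the CAC means labelled RNF138-/- rose, within 1 SD, to 2891 CPM for *Lyz1*, 881 for *Mmp7* and 294 for *Itln1*. Depth limits the defensins in colitis, where 3 counts are 0.151 to 0.188 CPM.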

Other observations

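The C-type lectin *Reg3g*, an epithelial antimicrobial gene outside the set that was singled out after its values were seen, peaked in other libraries than *Ang4* in both tissue groups labelled RNF138-/-, while in CAC wild type both genes were highest in replicate 3. In colitis labelled RNF138-/- *Reg3g* was at 2.996, 3.87 and 110 CPM, highest in replicate 3, where *Ang4* was lowest, and at 0.855, 0.227 and 1.19 CPM in wild type. In CAC it was at 11.6, 18.7 and 50.1 CPM in wild type and at 296, 1006 and 234 CPM in the libraries labelled RNF138-/-, and in organoids it overlapped between genotypes, at 15.7 to 39.9 CPM against 21.1 to 33.3 CPM. The mucosal pentraxin *Mptx2*, a Paneth granule gene that rose in the organoids labelled RNF138-/-, was at 0 to 0.549 CPM in wild type and 2.59 to 4.25 CPM there, and in CAC at 1.75, 83.3 and 5.55 CPM against 12.2, 158 and 3.18 CPM.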
